A study of Rattus norvegicus with 2 samples.

Results

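The genes described here encode the degradative machinery of the lysosome, namely its hydrolases, their lumenal cofactors, the proteins of its membrane, the proton pump V-ATPase and the transcription factor Tfeb. They were chosen by symbol: 27 named genes and every symbol that starts with Atp6v or Atp6ap. Of the 53 genes this gives, 52 were matched by symbol in the feature table, and 47 of these had at least 20 unique molecular identifiers (UMIs) over both libraries, out of 13727 genes that reached this level among 32623 in all. The 47 comprised 14 hydrolases, 3 lumenal cofactors, 8 membrane proteins, 21 pump genes and Tfeb. The hydrolase Sgsh was not matched by symbol and is not analysed here. Among the genes taken by the start of their symbol, Atp6v0d2, Atp6v1b1, Atp6v1e2, Atp6v1fnb and Atp6v1g3 had fewer than 20 UMIs, between 0 and 12 each.

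Flow cytometry had been used to sort microglia from rat hippocampus (male embryos, gestational day 20), and polyA RNA of single cells was sequenced from droplets. Dexamethasone is a synthetic glucocorticoid. Embryos exposed to it prenatally gave 1 library and control embryos the other, each a pool of 7 males. There were 42611920 UMIs over 4328 barcodes after dexamethasone and 69940778 UMIs over 8342 barcodes in the control, and 5 barcodes occurred in both. Each group is a single library without replicates, so no test was made, and exposure cannot be told apart from any other difference between the libraries.

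Lysosomes break down material that microglia and other phagocytes take up. Their hydrolases each cut particular bonds in glycans, lipids or proteins and work best in an acid lumen. The acid comes from the V-ATPase, whose V1 sector in the cytosol splits ATP and whose V0 sector in the membrane carries protons. The V-ATPase also acidifies endosomes and secretory vesicles, including the synaptic vesicles of neurons. Tfeb and related factors bind a short E-box-like element in the promoters of many lysosomal genes.

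To show that element, the promoters of the members were searched in RefSeq sequences of the GRCr8 assembly, from 250 bases before to 50 bases after the transcription start. A promoter was found for 38 of the 47 members. The counts were made against Rnor_6.0, of which no coordinates are used here. The palindrome TCACGTGA was in 4 of these 38 (10.5%) and in 1.10% of 19005 promoters of protein-coding genes. TCATGTGA, searched on both strands, was in 5 of the 38 (13.2%) and in 1.10% of all promoters. The shorter CACGTG, which TCACGTGA contains, was in 6 of the 38 (15.8%) and in 7.27% of all. The full CLEAR palindrome, which adds G before and C after TCACGTGA, was in 0 of the 38 and in 0.353% of all. Of other motifs searched on both strands, TGACTCA was in 4 of the 38 (10.5%; 4.13% of all) and GGAAGT in 8 (21.1%; 23.8% of all). The windows of the 9 members with TCACGTGA or TCATGTGA are printed 5′ to 3′ on the gene's strand, with the motif in capitals (TCACATGA is TCATGTGA on the other strand). For Lamp1 and Tpp1, which held 2 matches each, the window of the match farthest upstream is shown.
Lamp1, membrane protein, chr16:83075096-83075155, minus strand: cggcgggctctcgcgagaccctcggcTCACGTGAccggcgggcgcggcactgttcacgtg
Mcoln1, membrane channel, chr12:6358250-6358279, plus strand: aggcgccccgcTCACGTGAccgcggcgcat
Atp6v0d1, pump, chr19:50357268-50357327, minus strand: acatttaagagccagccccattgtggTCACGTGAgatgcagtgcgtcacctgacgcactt
Atp6v0e1, pump, chr10:17007115-17007144, minus strand: tcgcgcgccggTCACGTGAgcctctgttga
Atp6v0c, pump, chr10:13705821-13705850, minus strand: cgtggcccataTCATGTGAcgcgagcgcgg
Atp6v1a, pump, chr11:70067453-70067501, plus strand: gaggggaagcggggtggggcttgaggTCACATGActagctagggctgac
Galns, hydrolase, chr19:67571014-67571073, minus strand: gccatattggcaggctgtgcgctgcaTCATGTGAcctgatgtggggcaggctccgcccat
Grn, lumenal cofactor, chr10:87887611-87887670, plus strand: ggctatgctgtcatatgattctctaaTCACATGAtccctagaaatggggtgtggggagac
Tpp1, hydrolase, chr1:169515945-169516004, minus strand: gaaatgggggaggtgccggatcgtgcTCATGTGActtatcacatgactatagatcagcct
The match is a description of letters and not a measured binding site. In microglia the median log2 ratio of dexamethasone over control was -0.01 over these 9 members and -0.05 over the 29 members whose promoter window had neither sequence.

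Cells were assigned by marker UMIs, and no member was used as a marker. The microglia gate held 2885 dexamethasone and 5511 control cells, with median depths of 9132 and 7973 UMIs. Of the 9 microglia markers matched by symbol, Siglech was at 0 in these cells in both libraries. Markers of border-associated macrophages, the macrophages of brain linings and vessels, had a median of 8 UMIs per cell in the microglia gate, against 12 of microglia markers, in both libraries. The border-associated macrophage gate held 268 and 594 cells, where the macrophage markers had medians of 58 and 66 UMIs per cell. Another 281 and 488 cells lay between these gates and entered neither. The remaining gates held 54 and 48 granulocyte- and monocyte-like cells, 59 and 78 erythroid-like cells and 67 and 288 neuron-like cells, all in a sort for microglia. A gate is a range of marker counts and not a type: 378 dexamethasone and 555 control cells sat exactly at the minimum of 3 microglia markers, and 248 and 335 cells had 1 marker fewer.

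Levels are given as CPM, the UMIs of a gene scaled to a fixed total over the same cells, which are not scaled by gene length, so levels are not ranked between genes. Intervals are at the 95% level and cover counting error only. In microglia the members together took 1.49% of dexamethasone and 1.57% of control UMIs. Hydrolases summed to 2376 and 2527 CPM, lumenal cofactors to 3797 and 4066 CPM, membrane proteins to 3376 and 3651 CPM and pump genes to 5366 and 5488 CPM. The summed level was thus lower in the dexamethasone library in each of the 4 classes. Dexamethasone over control gave log2 ratios of -0.09 (-0.10 to -0.08) for hydrolases, -0.10 (-0.11 to -0.09) for cofactors, -0.11 (-0.12 to -0.10) for membrane proteins and -0.03 (-0.04 to -0.02) for the pump. These differences of a few percent stood beside a mitochondrial share of UMIs of 3.13% in dexamethasone and 5.995% in control microglia, and a ribosomal protein share of 15.1% and 13.2%. The part of these shares in the result was not tested. Scaling to nuclear genes without ribosomal protein and globin genes left all 4 ratios below 0, between -0.13 and -0.05.

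By gene, 29 of 47 members were lower in dexamethasone microglia, where 50.5% of all genes tested were lower. At least 20% lower were 2 members (11.7% of all genes), and at least 25% higher were 2 (12.2% of all genes). The median log2 ratio was -0.05 over the members and -0.0024 over all genes. Among genes with at least 1000 UMIs these shares were 5.37% and 5.18%, beside 1 of 41 members each (Ppt1 and Atp6v0a1). The counting interval lay below 0 for 20 members (21.7% of all genes) and above 0 for 12 (20.6% of all genes), and it is narrower for genes with more UMIs. Without cycling cells 20 of 43 members were lower (50.2% of all genes) and the median of the members turned to 0.0039, while the 4 class sums stayed below 0.

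**Figure D1:**
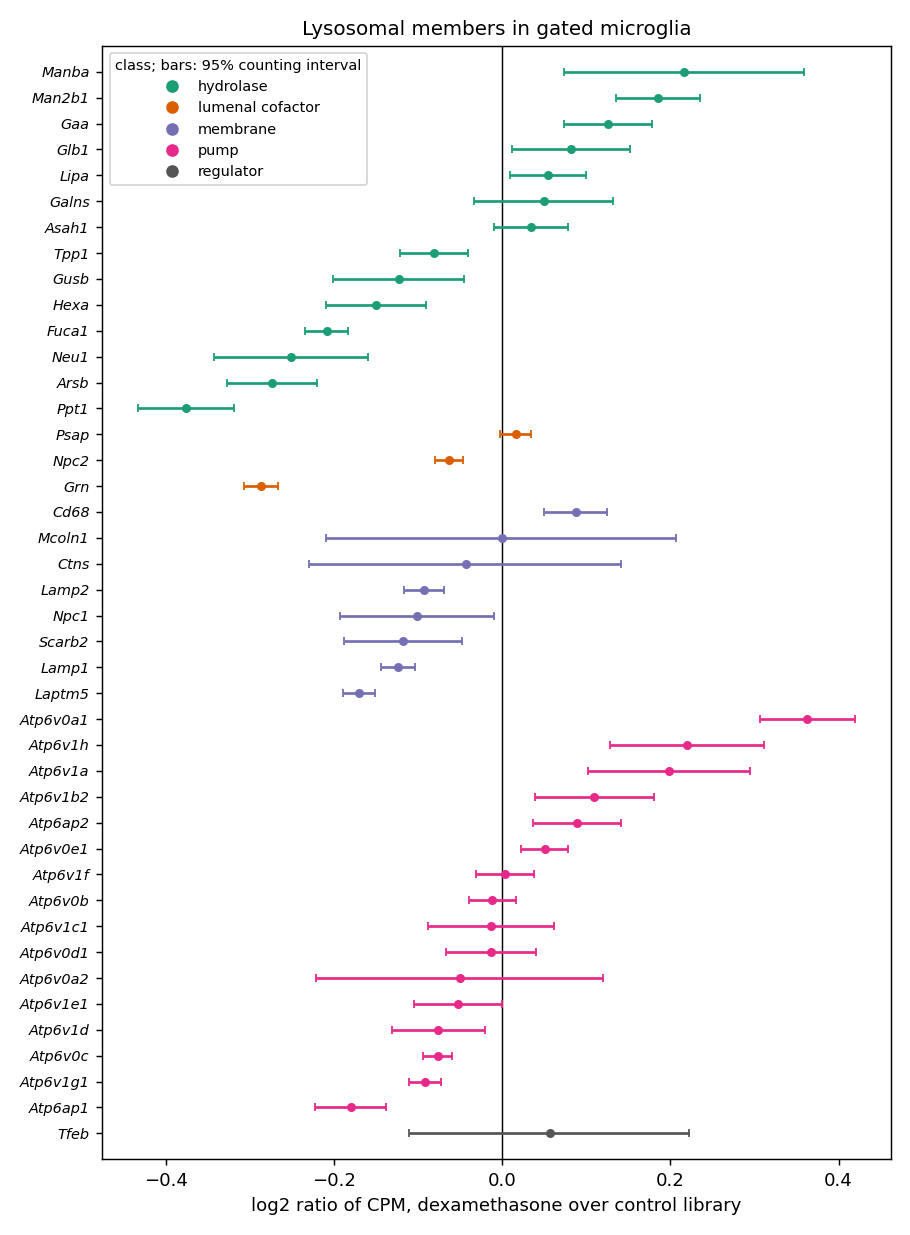
Log2 ratio of CPM, dexamethasone over control library, in gated microglia for each member with at least 5 CPM in the control library, grouped and coloured by class. Points are the ratios of 1 library against 1 library and bars the 95% counting intervals; Ppt1 lies lowest at -0.38 and Atp6v0a1 highest at 0.36.

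Among the hydrolases 7 were lower (50.5% of all genes) and 7 higher (49.5% of all genes) in the dexamethasone library, so the lower class sum came from part of the class. Ppt1 (ENSRNOG00000012616), which removes palmitate from proteins, was at 122 CPM in dexamethasone and 158 CPM in control microglia, a log2 ratio of -0.38 (-0.43 to -0.32). Arsb, a sulfatase of glycosaminoglycans, was at 144 and 174 CPM, a log2 ratio of -0.27. Neu1, the lysosomal sialidase, was at 49.3 and 58.7 CPM, a log2 ratio of -0.25. These were the 3 hydrolases farthest from 0, and all were lower in the dexamethasone library. Fuca1, the alpha-fucosidase, had the most UMIs of the class and was at 643 and 743 CPM, a log2 ratio of -0.21. Tpp1, a tripeptidyl peptidase, was at 262 and 277 CPM. Hexa (-0.15) and Gusb (-0.12), which act on gangliosides and on glucuronides, completed the lower group. On the other side, Man2b1, the lysosomal alpha-mannosidase, was at 183 and 161 CPM, a log2 ratio of 0.19 (0.14 to 0.24). Gaa, the acid alpha-glucosidase that degrades glycogen, was at 162 and 148 CPM (0.13), and Manba, the beta-mannosidase, at 23.1 and 19.9 CPM (0.22). Lipa, the acid lipase, was at 213 and 205 CPM, and Asah1, the acid ceramidase, at 227 and 221 CPM, where the interval of the ratio held 0.

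The lumenal cofactors are not enzymes themselves. Grn (ENSRNOG00000021031), the precursor of the granulins, was at 991 CPM in dexamethasone and 1208 CPM in control microglia, a log2 ratio of -0.29 (-0.31 to -0.27). Npc2, which hands cholesterol to Npc1, was at 1475 and 1542 CPM (-0.06). Psap, the precursor of the saposins that present sphingolipids to hydrolases, was at 1331 and 1316 CPM, with an interval of the ratio from -0.002 to 0.034. Grn alone thus gave most of the difference of the class.

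Of the 8 membrane proteins 7 were lower in the dexamethasone library (50.5% of all genes), Mcoln1 among them by less than 0.01, and 1 was higher. Laptm5, a transmembrane protein of leukocyte lysosomes, was at 1097 and 1235 CPM, a log2 ratio of -0.17 (-0.19 to -0.15). Lamp1 and Lamp2, the abundant glycoproteins that line the membrane, had ratios of -0.12 and -0.09, Lamp1 at 1045 and 1138 CPM and Lamp2 at 757 and 807 CPM. Scarb2, the receptor that carries glucocerebrosidase to lysosomes, was at 85.8 and 93.1 CPM (-0.12). Cd68, a glycoprotein of phagocyte lysosomes, was the member that went the other way, at 318 and 299 CPM, a log2 ratio of 0.09 (0.05 to 0.12). The cholesterol transporter Npc1 had a ratio of -0.10, and the cystine transporter Ctns and the calcium channel Mcoln1 were below 15 CPM with intervals that held 0.

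The pump genes had the smallest class difference, and their subunits went both ways, 13 lower (50.5% of all genes) and 8 higher (49.5% of all genes). Atp6v0a1 (ENSRNOG00000036814), an isoform of the V0 subunit a, was at 152 CPM in dexamethasone and 118 CPM in control microglia, a log2 ratio of 0.36 (0.31 to 0.42). Its isoform Atp6v0a2 was at 15.1 and 15.6 CPM and Atp6v0a4 at 0.272 and 0.302 CPM, both with intervals that held 0. Tcirg1, a further gene of subunit a, lies outside the symbol rule and so outside the pump and V0 sums. It was at 39.7 and 40.1 CPM. Atp6v1h, the regulatory V1 subunit H, was at 55.5 and 47.6 CPM (0.22), and Atp6v1a, the catalytic V1 subunit, at 49.6 and 43.2 CPM (0.20). The 4 pump genes with the most UMIs stood closer to 0. Atp6v0c, the proteolipid of the V0 ring, was at 1441 and 1519 CPM (-0.08), and Atp6v1g1, a V1 stalk subunit, at 1144 and 1219 CPM (-0.09). Atp6v0b was at 560 and 565 CPM (-0.01) and Atp6v0e1 at 560 and 541 CPM (0.05). Atp6ap1, an accessory subunit, was at 238 and 270 CPM (-0.18), while Atp6ap2, the other accessory subunit, was at 163 and 153 CPM (0.09).

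For the V1 subunits B, C, E and G, each encoded by a gene family, microglia of both libraries held UMIs of 1 main isoform. Subunit B was carried by Atp6v1b2 (89.8 and 83.2 CPM), subunit C by Atp6v1c1 (77.7 and 78.5 CPM, against 0.442 and 0.302 CPM of Atp6v1c2), subunit E by Atp6v1e1 (157 and 163 CPM) and subunit G by Atp6v1g1, with Atp6v1g2 at 0.272 and 0.322 CPM. Atp6v0e2 was at 1.39 and 2.25 CPM and Atp6ap1l at 0.272 and 0.282 CPM. Tfeb was at 16.3 and 15.7 CPM, a log2 ratio of 0.06 (-0.11 to 0.22), so a difference was not detectable at this depth.

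The same direction across microglial states was seen for some members. The states were cut from marker UMIs of the gated microglia, so they share the libraries and are no replicates. Atp6v0a1 was higher in the dexamethasone library in 6 of 6 states, with log2 ratios from 0.28 to 0.43 and intervals above 0 in all 6. Ppt1 was lower in 6 of 6 (-0.54 to -0.25), as were Grn (-0.37 to -0.19), Laptm5 (-0.23 to -0.08), Lamp1 (-0.22 to -0.05) and Atp6v0c (-0.25 to -0.05), each with intervals below 0 in all 6. Man2b1 was higher in 6 of 6, with intervals above 0 in 5. Fuca1, Arsb, Neu1, Npc2, Scarb2, Atp6ap1 and Atp6v1g1 were also lower in 6 of 6, and Gaa, Manba and Atp6ap2 higher. Their intervals lay off 0 in 1 to 5 states. The share of all genes with 1 direction in 6 of 6 states was not computed, and intervals are narrower for genes with more UMIs. Atp6v1a ranged from below to above 0, at 75.03 against 51.1 CPM in the axon-tract state and at 38.4 against 38.9 CPM in the P2ry12/Tmem119 state.

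The border-associated macrophages had levels close to those of microglia. Their hydrolases were at 97.1% of the microglial sum after dexamethasone and 95.9% in the control library, and their pump genes at 102% and 95.3%. At least 2-fold higher in microglia were 0 of 43 members in either library, where 6.44% (dexamethasone) and 7.37% (control) of all genes were. At least 2-fold lower were also 0 of 43 (2.68% and 4.36% of all genes). The median over all genes lay 0.15 and 0.13 above 0 on the log2 scale in this comparison, and relative to that shift the control ratios of microglia over macrophages turned from 0.06 to -0.06 for hydrolases, from 0.12 to -0.01 for membrane proteins and from 0.07 to -0.06 for the pump. No direction is therefore given for these classes. Between the libraries, the macrophages had log2 ratios of dexamethasone over control of -0.07 (-0.11 to -0.03) for hydrolases and 0.07 (0.04 to 0.10) for the pump, at 5478 and 5230 CPM. Of 42 members compared 23 were lower (54.7% of all genes), while 11 of the 16 pump genes were higher (45.3% of all genes). Grn was lower in these cells too, at 997 and 1214 CPM (-0.28), and Ppt1 at 136 and 162 CPM (-0.25). Atp6v0a1 was at 196 and 179 CPM, with an interval from -0.03 to 0.29.

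**Figure D2:**
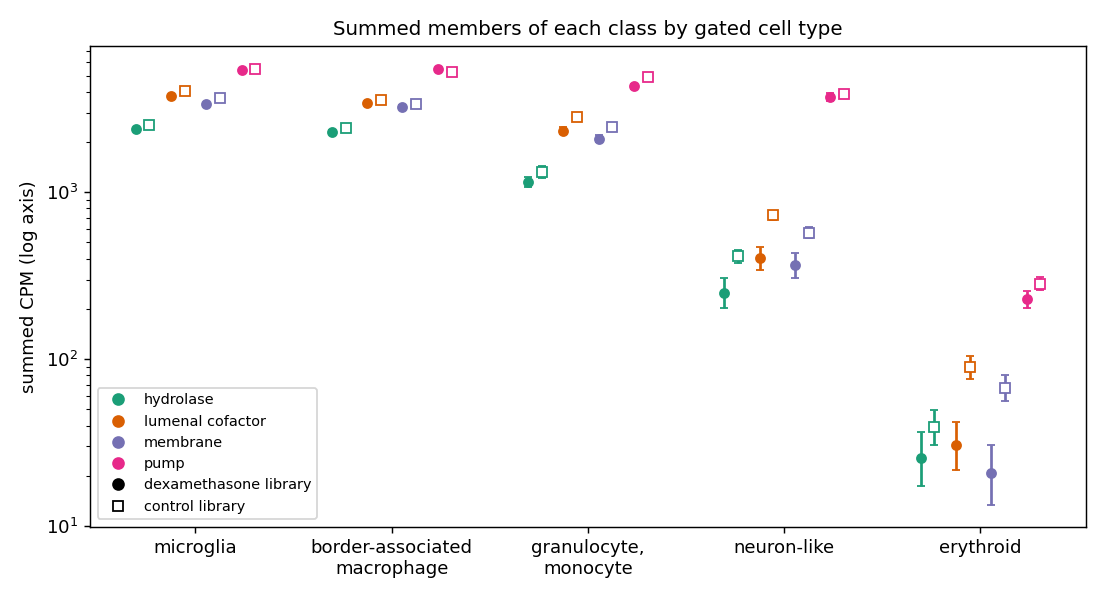
Summed CPM of the members of each class (log axis) in each gated cell type, for the dexamethasone library (filled circles) and the control library (open squares); bars are 95% Poisson intervals. In neuron-like cells the pump, at 3709 and 3897 CPM, lies at 69.1% and 71.0% of its microglial level, and the other 3 classes at 10.5 to 17.9% of theirs.

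The granulocyte- and monocyte-like cells, few in number, had lower summed levels in each class. Hydrolases were at 48.7% and 52.6% of the microglial sum, membrane proteins at 62.0% and 67.3% and the pump at 80.3% and 89.5%, in the dexamethasone and control libraries. Relative to the median of all genes the pump turned, from log2 ratios of microglia over these cells of 0.32 and 0.16 to -0.06 and -0.16. At least 2-fold higher in microglia were 15 of 42 members in the dexamethasone library (24.9% of all genes) and 15 of 43 in the control library (25.4%). Erythroid-like cells, in which globin took 44.7% and 50.3% of UMIs, held all members at 2.05% and 3.05% of the microglial level. Their microglial genes Csf1r, C1qa, C1qb, C1qc, Tyrobp and Fcer1g together were at 0.741% and 1.81%, the hydrolases at 1.08% and 1.55% and the pump at 4.27% and 5.17%. Most genes were lower in these cells. The median log2 ratio of microglia over erythroid-like cells was 3.33 and 3.72 over all genes. Relative to that median the hydrolases were at 3.20 and 2.29 and the pump at 1.22 and 0.55.

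Neuron-like cells separated the pump from the other classes. In the control library their hydrolases were at 16.3% of the microglial level (14.9 to 17.8%), their lumenal cofactors at 17.9% and their membrane proteins at 15.7%. The pump was at 71.0% (69.0 to 73.1%). In the dexamethasone library the values were 10.5%, 10.6% and 10.8%, and 69.1% (65.5 to 72.9%) for the pump. At least 2-fold higher in microglia were 28 of 45 members in the control library, where 22.8% of all genes were, and 27 of 43 in the dexamethasone library, where 21.5% were. The median over all genes was -0.11 and -0.19 on the log2 scale in these comparisons, so relative to that shift the class ratios are larger.

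The 6 microglial genes named above served as a benchmark for microglial RNA in neuron-like droplets. They were at 11.97 to 15.1% of their microglial level in the control library and at 3.88 to 7.52% in the dexamethasone library. Of all genes compared, 94.8% in the control library and 97.2% in the dexamethasone library stood above the highest of them, so this is what most genes do. All 19 pump genes compared did in both libraries. Of the 14 hydrolases, 9 did in the control library, 10 in the dexamethasone library and 7 in both. As a class the hydrolases were above the sum of the 6 genes. In the control library they were at 16.3% (14.9 to 17.8%) against 12.99% (12.6 to 13.4%). In the dexamethasone library they were at 10.5% (8.47 to 12.8%) against 5.29% (4.90 to 5.70%). These intervals did not overlap, but the hydrolase intervals overlapped those of Tyrobp and Fcer1g taken singly. Tyrobp was at 14.7% (13.6 to 15.8%) in the control and 7.51% (6.22 to 8.99%) in the dexamethasone library. Fcer1g was at 15.1% (13.9 to 16.3%) and 7.52% (6.05 to 9.23%). Whether the hydrolases exceed microglial RNA in these droplets was not tested. Highest among the hydrolases in the dexamethasone library were Gaa (16.4%, from 10 UMIs), Hexa (13.3%, from 6 UMIs) and Fuca1 (13.2%, from 32 UMIs). Tpp1 was at 9.70% and 7.08% of its microglial level in the control and dexamethasone libraries and Lipa at 10.3% and 4.98%, both within or below the range of the microglial genes. Neu1 (26.4% and 5.38%) rested on 19 and 1 UMIs. Among membrane proteins, Laptm5 was at 10.4% and 3.38%, like the microglial genes, and Scarb2 at 42.9% and 52.5%. Lamp1 was at 20.9% and 15.2%, and Lamp2 at 12.2% and 12.3%. Npc1 was at 36.0% and 10.5%, the latter from 2 UMIs. Among the cofactors, Npc2 was at 19.8% and 12.9%, Psap at 20.4% and 12.8% and Grn at 12.7% and 4.28%.

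**Figure D3:**
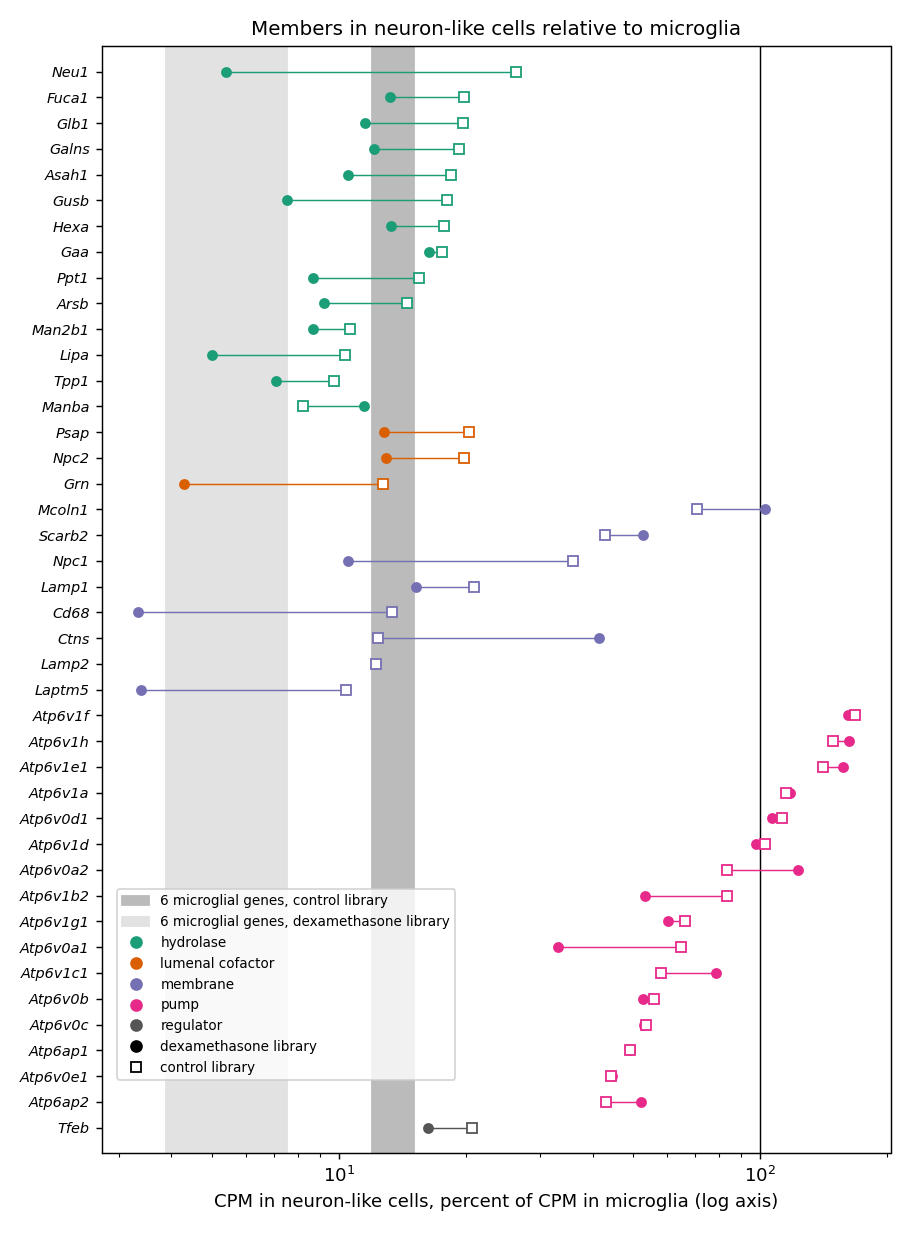
CPM in neuron-like cells as a percentage of CPM in microglia (log axis) for members with at least 5 CPM in control microglia; filled circles are the dexamethasone library and open squares the control library. Grey bands span the 6 microglial genes, 11.97 to 15.1% in control and 3.88 to 7.52% in dexamethasone, and every pump gene lies to the right of both bands.

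Within the pump, the sectors differed. The V1 sector was at 95.8% (92.0 to 99.6%) of the microglial sum in control neuron-like cells and at 93.1% (86.4 to 100.1%) in dexamethasone ones, the V0 sector at 56.0% and 53.6% and the accessory subunits at 47.0% and 50.2%. The ratio of V0 to V1 UMIs was 1.35 in control and 1.38 in dexamethasone microglia, and 0.793 (0.747 to 0.841) and 0.796 (0.713 to 0.889) in neuron-like cells. Atp6v1f, a V1 subunit, was at 614 CPM in control and 594 CPM in dexamethasone neuron-like cells, against 367 CPM in microglia of both libraries. Atp6v1e1 was at 230 and 247 CPM, against 163 and 157 CPM. Atp6v1h was at 70.9 and 90.1 CPM, against 47.6 and 55.5 CPM. Other V1 genes were lower than in microglia, among them Atp6v1g1, the V1 gene with the most UMIs, at 66.2% and 60.3% of the microglial level, Atp6v1c1 at 58.1% and 78.4%, and Atp6v1b2 at 83.2% and 53.2%. The V0 genes Atp6v0c (53.5% and 52.8% of the microglial level), Atp6v0b (56.0% and 52.5%) and Atp6v0e1 (44.1% and 44.5%) were lower than in microglia. The V0 gene Atp6v0d1 stood apart from them at 113% and 107%.

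Low-level isoforms were a further difference. Atp6v1g2, the G subunit known from neurons, was at 20.4 CPM in control neuron-like cells (25 UMIs) and at 13.3 CPM in dexamethasone ones (5 UMIs), against 0.322 and 0.272 CPM in microglia. Atp6ap1l was at 5.70 CPM (7 UMIs) and 26.5 CPM (10 UMIs), against 0.282 and 0.272 CPM. These were the 2 members at least 2-fold lower in microglia in the control library, where 24.7% of all genes were. In the dexamethasone library both had too few UMIs to be counted, and the 1 member at least 2-fold lower (26.6% of all genes) was Atp6v0e2, at 1.39 CPM against 7.95 CPM from 3 UMIs, which in the control library was at 2.25 against 1.63 CPM. Erythroid-like cells also held Atp6ap1l, at 12.9 CPM (23 UMIs) in the control library and 11.6 CPM (14 UMIs) in the other.

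Shares of cells with a UMI followed the CPM for some members only. After each cell was thinned to 4400 UMIs, Atp6v1f was detected in 71.5% of 4998 control microglia (70.2 to 72.8%, exact Clopper-Pearson) and in 87.4% of 103 control neuron-like cells (79.4 to 93.1%). Before thinning the shares were 83.8% and 68.1%, at median depths of 7973 and 2589 UMIs. Atp6v1g1, whose CPM was lower in neuron-like cells, was in 98.5% of thinned control microglia and 99.0% of thinned control neuron-like cells. Shares so close to all cells say little about level. Laptm5, which neurons should lack, was in 99.3% of thinned microglia and in 20.4% (13.1 to 29.5%) of thinned neuron-like cells. Fuca1 was in 94.9% and 40.8%, and Cd68 in 52.0% and 9.71%. These genes differ in microglial level, so the share of Laptm5 does not set a background for the others. The part of microglial RNA in these shares was not tested. Thinning left out 513 of the control microglia and 185 of the control neuron-like cells for low depth.

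Neuron-like cells with at most 2 UMIs of Csf1r, P2ry12, Cx3cr1, C1qa, C1qb and C1qc together were also examined, a choice made after the data were seen. The chosen control cells were shallow, with a median of 1227 UMIs against 2589 in all control neuron-like cells, and the chosen dexamethasone cells had 4949. In these 162 control and 48 dexamethasone cells the pump was at 66.4% and 69.5% of the microglial level. Hydrolases were at 8.54% and 7.94%, and membrane proteins at 7.99% and 9.45%. Tyrobp and Fcer1g, which were not among the genes of the choice, were at 4.21% and 5.06% in the control library and 1.99% and 1.81% in the dexamethasone library. They are microglial genes like those of the choice, so their levels are not independent of it. The share over all genes was not computed for these cells, and the part of microglial RNA in these values was not tested.

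Between the libraries, neuron-like cells had a log2 ratio of dexamethasone over control of -0.73 (-1.06 to -0.41) for hydrolases and -0.07 (-0.16 to 0.02) for the pump. Their 6 microglial genes had a log2 ratio of -0.99 (-1.10 to -0.87), while in microglia these genes were higher in the dexamethasone library (0.31). The part of microglial RNA in the hydrolase ratio was not tested.

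Microglial states were compared with the cells that held UMIs of both P2ry12 and Tmem119 and too few markers for another state (490 dexamethasone and 1192 control cells), markers of homeostatic microglia. The axon-tract state, cells with at least 2 of Spp1, Gpnmb and Lpl (295 and 560 cells), is a phagocytic state known from developing white matter. The pump had the highest ratio of the 4 classes. It was at 8172 CPM against 5018 CPM in the dexamethasone library and at 8062 CPM against 5275 CPM in the control library, log2 ratios of 0.70 (0.68 to 0.73) and 0.61 (0.59 to 0.63). The other classes were higher by less, with log2 ratios of 0.26 and 0.23 for hydrolases, 0.35 and 0.35 for cofactors and 0.24 and 0.21 for membrane proteins. At least 25% higher were 29 of 42 members in the dexamethasone library, where 15.9% of all genes were, and 24 of 43 in the control library, where 13.2% were. At least 20% lower were 1 and 2 members (27.8% and 28.5% of all genes). The 1 member in the dexamethasone library was a V0 gene of the pump. Of the 2 in the control library, 1 was a V0 gene and 1 a hydrolase. The median over members was 0.47 and 0.36, and over all genes -0.09 and -0.12, a shift relative to which the members' ratios are larger.

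Atp6v1e1 led the members, at 341 CPM in axon-tract cells against 121 CPM in the dexamethasone library and at 337 against 131 CPM in the control library, log2 ratios of 1.49 (1.34 to 1.65) and 1.37 (1.26 to 1.47). Atp6v1f followed with 726 against 294 CPM and 686 against 316 CPM (1.30 and 1.12). All 8 V1 genes compared were higher in both libraries, where 40.2% of all genes in the dexamethasone and 36.0% in the control library were. Of the V0 genes, 5 of 6 were higher in the dexamethasone and 5 of 7 in the control library. The sector sums had ratios of 0.79 and 0.62 for V1 and of 0.69 and 0.64 for V0. In V0, Atp6v0c was at 2481 against 1306 CPM and 2563 against 1386 CPM (0.93 and 0.89). Atp6v0a1 differed by less, at 0.21 and 0.11. Among hydrolases, Arsb was at 293 against 124 CPM and 328 against 168 CPM (1.24 and 0.97), and Hexa at 216 against 118 CPM and 213 against 128 CPM (0.88 and 0.73). Cd68 was at 566 against 375 CPM and 550 against 342 CPM (0.59 and 0.69), Lamp1 had ratios of 0.58 and 0.50, and Npc2 0.54 and 0.57. Tfeb was at 28.5 against 13.9 CPM and 23.0 against 15.9 CPM (1.03 and 0.53), with wide intervals of 0.55 to 1.53 and 0.19 to 0.88.

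Not all members were higher there. Of the pump genes compared, 2 of 16 were lower in the dexamethasone library (59.8% of all genes). In the control library 2 of 17 were lower (64.0% of all genes). Man2b1 was at 163 against 202 CPM and 138 against 182 CPM (-0.31 and -0.40), Lamp2 at 747 against 911 CPM and 789 against 946 CPM (-0.28 and -0.26), and Fuca1 at 646 against 762 CPM and 760 against 866 CPM (-0.24 and -0.19). Psap (0.05 and 0.05) and Laptm5 (0.08 and 0.04) were near 0. Lamp1 and Lamp2 thus went in opposite directions in both libraries. Axon-tract cells were deeper, with medians of 11124 and 10303 UMIs against 7761 and 6849. After thinning to 4400 UMIs the pump ratios were 0.66 and 0.59. The thinned cells kept the state assigned at full depth, so thinning cannot show how depth affects that assignment.

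**Figure D4:**
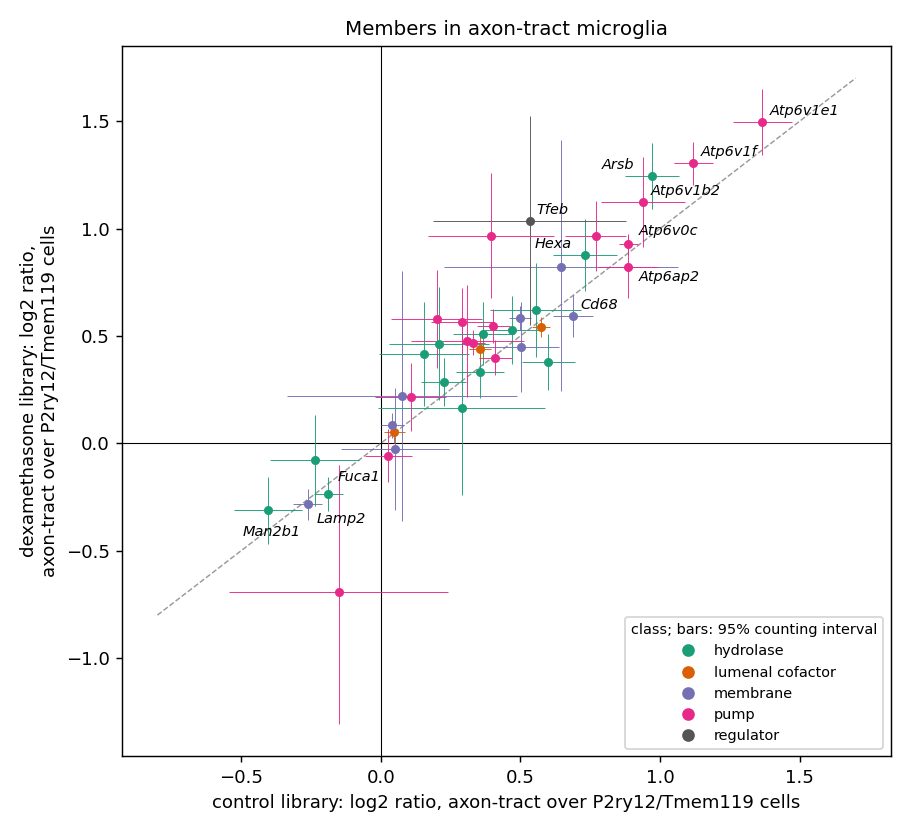
Log2 ratio of CPM, axon-tract over P2ry12/Tmem119 microglia, in the control library (x axis) and the dexamethasone library (y axis) for members with at least 5 CPM in the comparison cells of both libraries; bars are 95% counting intervals and the dashed line marks equal ratios. Atp6v1e1 lies farthest out at 1.37 and 1.49, and Man2b1, Lamp2 and Fuca1 lie below 0 in both.

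Cycling microglia lay on the other side. In cells with at least 4 G2/M markers (593 and 1207 cells), hydrolases were at 1938 against 2636 CPM in the dexamethasone library and at 1985 against 2787 CPM in the control library, log2 ratios of -0.44 and -0.49. Cofactors had ratios of -0.49 and -0.47, membrane proteins -0.40 and -0.39 and the pump -0.14 and -0.19. Lower were 35 of 42 and 41 of 43 members, where 44.4% and 47.6% of all genes were lower. Cd68 was at 195 and 161 CPM, with ratios of -0.94 and -1.08, Ppt1 at -0.82 and -0.76 and Asah1 at -0.73 and -0.79. Within the pump, the V0 sector had ratios of -0.22 and -0.24 and the V1 sector 0.01 (-0.03 to 0.05) and -0.08 (-0.11 to -0.05). The V0 to V1 ratio was 1.27 and 1.23 in G2/M, against 1.49 and 1.38 in the P2ry12/Tmem119 state. In S phase (545 and 752 cells) hydrolases had ratios of -0.26 and -0.27 and membrane proteins -0.28 and -0.28, and the pump 0.05 and 0.04. Chemokine-marked cells (109 and 115 cells) had hydrolases at -0.13 and -0.12 and the pump at 0.11 and 0.17. The remaining non-cycling cells had class ratios from -0.10 to 0.05.

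**Figure D5:**
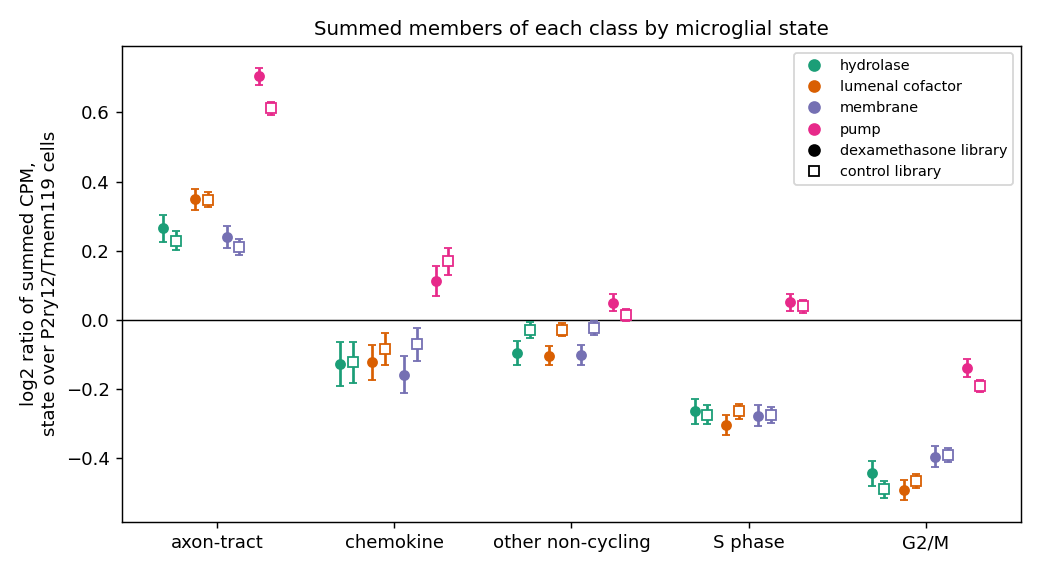
Log2 ratio of summed CPM of each class, microglial state over P2ry12/Tmem119 cells, within the dexamethasone library (filled circles) and the control library (open squares); bars are 95% counting intervals. In each of the 5 states the pump has the highest value of the 4 classes in both libraries, from -0.19 in control G2/M cells to 0.70 in dexamethasone axon-tract cells.

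States are ranges as well: 341 dexamethasone and 597 control microglia carried exactly 2 of the axon-tract genes, before cycling cells were set apart, and 887 and 1573 carried 1. Between the libraries, the pump ratio of dexamethasone over control was 0.02 (-0.002 to 0.040) in axon-tract cells, turning to -0.005 over nuclear genes, and -0.07 (-0.10 to -0.05) in P2ry12/Tmem119 cells, and hydrolases were at -0.04 and -0.08.

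Beyond the members, 89 other genes were listed and 82 measured in microglia. The list mixes lysosomal hydrolases, cofactors and membrane proteins with genes of enzyme sorting and regulators, which need not encode lysosomal proteins. Lower in the dexamethasone library were 49 (50.5% of all genes) and higher 33, with 3 at least 20% lower (11.7% of all genes), 1 at least 25% higher (12.2% of all genes) and a median log2 ratio of -0.04. Of these 3, the hydrolase Gla was at 2.79 and 4.50 CPM, a log2 ratio of -0.69 (-1.08 to -0.32). The regulator Tfe3, also of the 3, was at 2.52 and 3.22 CPM, with an interval that held 0. Cst3, the cathepsin inhibitor cystatin C, completed them at 19498 and 24930 CPM, a log2 ratio of -0.35 (-0.36 to -0.35). The 1 gene at least 25% higher was Ctsk, at 8.06 and 4.83 CPM (0.74). Lyz2, lysozyme, was at 297 and 369 CPM (-0.315), which is less than 20% lower. Lgmn, an asparaginyl endopeptidase, was at 2265 and 2513 CPM (-0.15).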

How the data were processed

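The deposited matrices hold UMI counts per gene and barcode, made by the authors with Cell Ranger 7.0.0 per the file headers and against Rnor_6.0 per the submitters' processing notes. The chemistry and the handling of intronic reads are not given in the sources used here. The members and lists were chosen with earlier results of these data known, and gate thresholds after the data were seen.

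Kept were 4199 dexamethasone and 8044 control cells, with 200 or more genes and no more than 20% mitochondrial UMIs. Microglia had at least 3 microglia markers and macrophage-marker UMIs under 4 times their microglia-marker UMIs. Macrophages had at least 10 UMIs of at least 3 macrophage markers, at 8 times the microglia-marker UMIs or more. Other gates needed 3 markers. Cells in several gates, or with over 1% globin UMIs outside the erythroid gate, were set aside, and no doublet caller was run, so doublets can remain. States took, in this order, 4 G2/M markers, 5 S-phase markers, 2 axon-tract genes, or 3 chemokines without Gpnmb.

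UMIs were summed per gate and library (Python 3.11.15, scipy 1.17.1), with exact Poisson intervals for CPM and conditional binomial intervals for ratios. Genes counted in a comparison had at least 20 UMIs in it, and a 0 stood at 3 counts or was left out. Only the code for ratios and their intervals was tested on simulated counts, which held counting error alone. Named per class were the 4 members of highest CPM, the 3 of largest dexamethasone ratio, and the 2 highest and 2 lowest over neuron-like cells, with Tfeb and isoform families. Others were named after their values were seen. Alternatives changed the gate, filter, scaling, depth and state cuts.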

Additional observations from a re-analysis of the deposited data

Results flagged for a closer look

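The pump went in opposite directions between the libraries in neighbouring cell types. In border-associated macrophages the log2 ratio of dexamethasone over control for the summed pump genes was 0.067 (0.04 to 0.10), with 11 of 16 genes higher (45.3% of all genes). In microglia the ratio was -0.03 (-0.04 to -0.02). Each value compares 1 library with 1 library, and the difference between the types was not tested. Relative to the median of all genes the macrophage ratio was 0.11 and the microglial one -0.03, and over nuclear genes they were 0.05 and -0.05.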

How the results depend on the processing

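No paired analysis was possible because each group holds 1 library, and for the same reason no library could be left out. Values are log2 ratios unless a count is named. The strict gate allowed no marker of another class and left 10 dexamethasone and 5 control microglia, 5 and 3 macrophages and 6 and 25 neuron-like cells, so its values rest on few cells. Settings with at most 1 marker of any other class (and at least 4 of their own), few microglial UMIs or a stricter state, and the thinned states, were chosen after seeing the data.

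For dexamethasone over control in microglia, every class sum stayed below 0 under each setting tried. Hydrolases were at -0.11 without a gate, -0.46 under the strict gate, -0.107 over nuclear genes, -0.107 by per-cell means, -0.11 after thinning and -0.10 without the cells of highest UMIs. Cofactors were at -0.12 without a gate, -0.44 under the strict gate, -0.12 over nuclear genes and -0.087 with states weighted equally. Membrane proteins were at -0.13, -0.0081 and -0.13 in the first 3 of these. The pump was at -0.17 under the strict gate, -0.051 over nuclear genes, -0.022 by per-cell means, -0.0498 with states weighted equally and -0.068 with at most 1 other marker. Under the strict gate 8 members were lower, 5 of them by at least 20%, with a median of -0.30. By per-cell means 4 were at least 20% lower. The count at least 25% higher was 0 without a gate, 4 with members of at least 1 UMI, and 1 after thinning, without the cells of highest UMIs, without cycling cells, with at most 1 other marker and with members of at least 100 UMIs. Without cycling cells the median was 0.0039 and 20 of 43 members were lower (50.2% of all genes). At least 25% higher was 1 of 43 without cycling cells (12.6% of all genes) and 1 of 43 with at least 100 UMIs (8.51%). For the other settings the share over all genes was not computed, so their counts show only how the result depends on processing.

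For control microglia over macrophages, the strict gate gave -0.046 for hydrolases, 0.34 for membrane proteins and -0.35 for the pump. Relative to the median of all genes they were -0.065, -0.0103 and -0.056, and over nuclear genes 0.0059, 0.060 and 0.0145. Per-cell means gave 0.012 for hydrolases, and at most 1 other marker gave 0.14 for membrane proteins and 0.039 for the pump.

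For control microglia over neuron-like cells, hydrolases, membrane proteins and the pump were at 4.42, 2.84 and 0.16 under the strict gate, 3.02, 3.05 and 0.57 by per-cell means, and 3.55, 3.65 and 0.59 with few microglial UMIs. The pump was at 0.54 over nuclear genes, 0.45 after thinning and 0.61 relative to the median of all genes, where membrane proteins were at 2.78. With at most 1 other marker hydrolases were at 3.65 and membrane proteins at 3.53.

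For axon-tract cells, thinning gave 0.40, 0.18 and 0.66 for cofactors, membrane proteins and the pump in the dexamethasone library, and 0.26, 0.23 and 0.59 for hydrolases, membrane proteins and the pump in the control library. Requiring all 3 genes, which left 70 and 127 cells, gave 0.38, 0.44, 0.38 and 0.89 for the 4 classes in the dexamethasone library and 0.78 for the pump in the control library. For G2/M cells, thinning gave -0.50, -0.43 and -0.19 for hydrolases, membrane proteins and the pump in the dexamethasone library, and -0.46 and -0.23 for hydrolases and the pump in the control library. At least 8 markers gave -0.52, -0.58, -0.46 and -0.24 for the 4 classes in the dexamethasone library and -0.56, -0.55, -0.44 and -0.24 in the control library. The causes of these shifts were not tested.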
